A study of Mus musculus with 32 samples.

Results

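Genes of the oligodendrocyte lineage and of myelin were followed in the hippocampus of Sicd2-ISCL4 subcongenic mice (ISCL4 mice) and of their FVB-like littermates. The 39 genes were a list of known lineage and myelin genes, sorted by role into precursor markers, lineage regulators, early myelinating genes, mature myelin structure and mature metabolism and support. The genes and their stages were chosen with earlier results of these data known. Of the 16755 gene-level features of the exon array, 37 carried the symbol of 1 of these genes and of no other gene. Myrf, the transcription factor that starts myelin gene expression, matched no feature and was not analysed here. Evi2a shared its feature with Evi2b and was read only at exon level, which brought the genes measured to 38 of 39.

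Each group held 8 male mice aged 6 to 8 weeks, both hippocampi of a mouse were pooled, and 1 array was run per mouse. The 32 samples are the gene-level and the exon-level summaries of the same 16 arrays. Sicd2 is a mouse chromosome 15 locus that affects neuronal death after seizures, and a subcongenic line carries a shortened donor segment on the genome of the host strain. The labels name neither the donor strain nor the ends of the segment, and they record no seizure or treatment in either group. The comparison therefore asks which transcripts differ with the segment in mice for which no seizure is recorded.

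Oligodendrocytes wrap axons in myelin, the insulating membrane that speeds conduction. They arise from precursors that carry the PDGF receptor alpha and the proteoglycan NG2, pass through a stage at which lipid enzymes and the first myelin proteins are switched on, and end as mature cells that hold large amounts of myelin transcripts. The hippocampus contains myelinated fibres in its layers and lies against large white matter tracts, the fimbria and the corpus callosum. In whole tissue, fewer oligodendrocytes and less RNA per oligodendrocyte cannot be told apart.

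The deposited values were log2 signals, whose array medians ran from 7.29 to 7.34 for genes and from 7.74 to 7.78 for exon probe sets. The array files follow 2 naming schemes, one for replicates 1 to 4 (array set A) and one for replicates 5 to 8 (array set B) of both groups, and what separates the sets is not stated. Array set entered every fit. Between the sets, 46.4% of gene-level features differed, and so did 18 of the 37 oligodendrocyte genes, 15 of which had lower signal in set B. The sphingolipid hydroxylase gene Fa2h differed most among them, by -1.16 (set B minus set A, adjusted p = 4.49e-08), so values of the 2 sets are given apart where single mice are described. Hippocampal markers were present in both groups: Prox1 of dentate granule cells averaged 8.39 in littermates and 8.30 in ISCL4 mice, and Wfs1 of CA1 pyramidal cells 10.13 and 10.15.

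Signals of the oligodendrocyte genes leaned towards lower values in ISCL4 mice, and 1 gene passed the test. Tspan2 fell, and it was the only 1 of 37 with an adjusted p under 0.05 (limma, Benjamini-Hochberg over all features), against 0.292% of all gene-level features called and 0.125% called lower. In sign, 33 of the 37 were lower in ISCL4 mice, against 47.9% of all features, and the exceptions were Cspg4, Mbp, Hapln2 and Cryab. The median log2 difference, ISCL4 minus FVB-like, was -0.12 over the 37 genes and 0.0044 over all features. At an unadjusted p under 0.05, 13 were lower and 0 higher, against 6.89% and 7.51% of all features. These genes vary together from mouse to mouse, so the counts are not 37 separate observations. FVB-like mice 2 and 3 had high values for many of them. Without these 2 mice 0 genes were called (0.0657% of all features), 30 were lower in sign and the median was -0.07. At an unadjusted p under 0.05, 8 were then lower, against 5.04% of all features. The 2 mice were chosen after the values were seen, and leaving out high littermates shrinks the difference by construction. Averaged over the 37 genes, relative to the littermate mean of the set, mice 2 and 3 stood at 0.15 and 0.11, and mouse 8, which was kept, at 0.12.

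**Figure D1:**
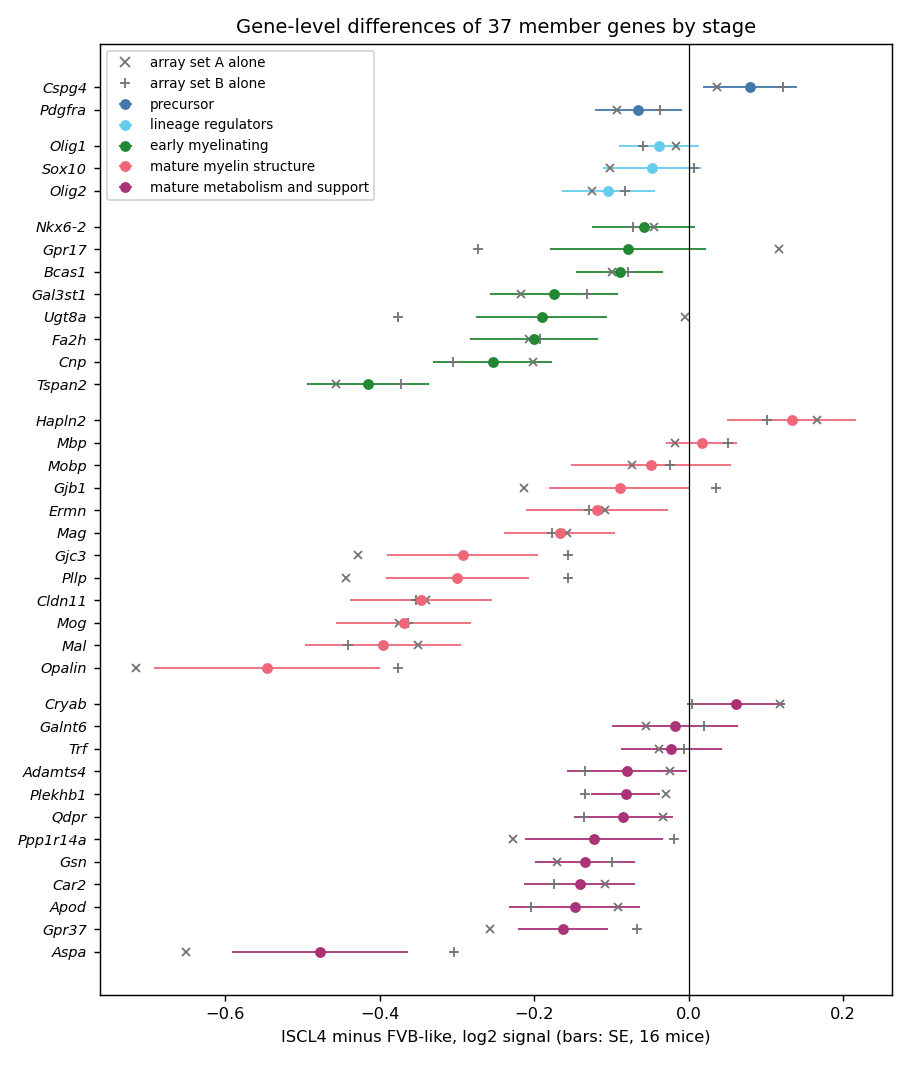
Log2 difference, ISCL4 minus FVB-like, of each of the 37 gene-level features, ordered by size within its stage; points are limma estimates over 16 mice with bars of 1 SE, and the grey marks are the estimates within array set A (crosses) and array set B (plus signs). Of the points, 33 lie left of 0, and the precursor markers and lineage regulators lie closer to 0 than Tspan2, Opalin, Aspa and Mal.

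By stage, the median difference was 0.0070 for the 2 precursor markers and -0.05 for the 3 lineage regulators. It was -0.18 for the 8 early myelinating genes, -0.23 for the 12 genes of mature myelin structure and -0.10 for the 12 genes of mature metabolism and support. Lower values in sign were found for 1 of 2, 3 of 3, 8 of 8, 10 of 12 and 11 of 12 genes. At an unadjusted p under 0.05 the counts were 0, 0, 4, 7 and 2. Within array set A the medians of the last 3 stages were -0.15, -0.28 and -0.07, and within set B -0.23, -0.16 and -0.12. Without FVB-like mice 2 and 3 they were -0.11, -0.15 and -0.06. The difference between stages was not tested.

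Promoter sequence is shown for 4 of the genes to set the called gene beside neighbours of its module that differed by more and by less: Tspan2, which was called, Opalin and Mog, whose differences were large without passing, and Mobp, whose difference was small. They were chosen after their values were seen. The sequences are the 250 bases before the annotated start, 5′ to 3′ on the gene's strand, from RefSeq on GRCm38.p6, a later build than the mm9 named in the submitters' processing notes. They lie at chr3:102734520-102734769 (plus strand, the first of 2 annotated starts) for Tspan2, chr19:41077114-41077363 (minus strand) for Opalin, chr17:37023399-37023648 (minus strand) for Mog and chr9:120149492-120149741 (plus strand) for Mobp. Capitals mark matches, on either strand, to the motifs searched.
Tspan2: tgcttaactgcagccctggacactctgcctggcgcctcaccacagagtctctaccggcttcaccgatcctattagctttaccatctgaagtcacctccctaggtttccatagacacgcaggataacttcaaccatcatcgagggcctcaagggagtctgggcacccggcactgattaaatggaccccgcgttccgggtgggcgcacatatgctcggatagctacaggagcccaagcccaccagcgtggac
Opalin: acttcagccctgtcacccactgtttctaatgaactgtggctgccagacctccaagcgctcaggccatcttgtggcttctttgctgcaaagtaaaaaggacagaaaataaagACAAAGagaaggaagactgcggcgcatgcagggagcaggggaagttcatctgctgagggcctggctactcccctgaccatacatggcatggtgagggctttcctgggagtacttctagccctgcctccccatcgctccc
Mog: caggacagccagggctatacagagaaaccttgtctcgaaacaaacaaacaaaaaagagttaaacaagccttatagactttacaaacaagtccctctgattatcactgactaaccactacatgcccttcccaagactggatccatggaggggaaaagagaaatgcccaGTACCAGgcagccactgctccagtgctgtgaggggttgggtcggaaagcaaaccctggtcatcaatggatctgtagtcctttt
Mobp: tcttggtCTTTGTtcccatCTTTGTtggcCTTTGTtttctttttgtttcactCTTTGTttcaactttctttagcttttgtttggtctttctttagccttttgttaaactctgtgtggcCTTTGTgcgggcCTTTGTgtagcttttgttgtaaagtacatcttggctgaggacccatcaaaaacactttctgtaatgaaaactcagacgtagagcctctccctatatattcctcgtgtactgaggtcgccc
Searched were ACAAAG and ACAATG, core letters bound by SOX proteins such as SOX10, CTGGCAC and CTGGTAC, core letters bound by MYRF, the E-box CAGCTG, the GC box GGGCGG and the TATA box TATAAA. None of these motifs overlaps another by containing it. Opalin held 1 ACAAAG match, 139 bases before the start, Mog 1 CTGGTAC match on the other strand, 83 bases before the start, and Mobp 6 ACAAAG matches, all on the other strand, while the Tspan2 window held no match. Shares of all promoters are over 32851 windows of the same length. Among 39 promoters of the 27 oligodendrocyte genes matched by symbol, 11 held the first SOX core and 6 the second, against 16.46% and 10.69% of all promoters. The MYRF cores were in 4 and 1 of the 39, against 4.19% and 1.83%. The E-box was in 4, against 13.0%, the GC box in 13, against 32.74%, and the TATA box in 3, against 12.37%. A match describes letters in the window and not a bound site.

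Neither precursor marker passed the test. Pdgfra, the PDGF receptor through which precursors are kept dividing, ranged from 8.06 to 8.64 with a median of 8.39 in littermates and from 8.10 to 8.49 with a median of 8.28 in ISCL4 mice. The groups overlapped, and the difference was -0.07 (95% interval -0.18 to 0.05, adjusted p = 0.637). Cspg4, which encodes the NG2 proteoglycan, ranged from 7.17 to 7.55 in littermates and from 7.28 to 7.57 in ISCL4 mice, a difference of 0.08 (95% interval -0.05 to 0.21). Both genes are also expressed by cells of blood vessels and meninges, Cspg4 by pericytes and Pdgfra by fibroblasts.

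The transcription factors of the lineage did not pass either. Olig1 and Olig2, the basic helix-loop-helix factors that specify the lineage and sit side by side on chromosome 16, differed by -0.04 (95% interval -0.15 to 0.07) and -0.10 (95% interval -0.23 to 0.02). Sox10, the factor needed for myelin gene expression, differed by -0.05 (95% interval -0.18 to 0.09), with -0.10 in array set A and 0.0063 in set B. Sox10 lies on chromosome 15, the chromosome of the Sicd2 locus. The interval of Olig2 includes the difference of -0.19 measured for Ugt8a, and those of Olig1 and Sox10 do not. That of Sox10 does include the difference of -0.17 measured for Gal3st1. Differences between genes were not tested.

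Among the early myelinating genes Tspan2 fell, and the other 7 were lower in sign without passing. Tspan2 encodes a tetraspanin membrane protein that appears as oligodendrocytes begin to make myelin. In array set A its log2 signal was 8.83, 9.15, 9.04 and 8.80 in the littermates and 8.86, 8.43, 8.22 and 8.49 in the ISCL4 mice. In array set B it was 9.35, 9.26, 9.11 and 9.17 in the littermates and 8.89, 8.86, 8.90 and 8.75 in the ISCL4 mice. The groups did not overlap in set B, and in set A only ISCL4 mouse 1 reached the littermates' range. The group values were 9.09 ± 0.19 and 8.67 ± 0.26 (SD, n = 8 each), a fall of 1.33-fold, with a log2 difference of -0.42 (SE 0.079, 95% interval -0.58 to -0.25, limma adjusted p = 0.0345). Within set A it was -0.46, and within set B -0.37. The call did not hold when any 1 of 11 mice was left out (FVB-like mice 2, 3, 5, 6 and 7 and ISCL4 mice 2, 3, 4, 6, 7 and 8; adjusted p 0.0568 to 0.0852) and held without each of the other 5 mice (0.00978 to 0.0486), while the difference stayed between -0.47 and -0.37. Without FVB-like mice 2 and 3 together it was -0.35 (adjusted p = 0.185). The call also did not hold with quantile normalization (adjusted p = 0.0527), for the median of its exon probe sets (adjusted p = 0.115) or without the array set term (adjusted p = 0.310). It was lost as well when same-numbered mice of the groups were treated as pairs (the replicate block), although the labels give no pairing.

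Cnp, the cyclic nucleotide phosphodiesterase that keeps channels of cytoplasm open in myelin, ranged from 10.33 to 10.90 with a median of 10.69 in littermates and from 10.24 to 10.61 with a median of 10.36 in ISCL4 mice. All ISCL4 mice of set B lay below all littermates of that set, and in set A the groups overlapped. The difference was -0.25 (SE 0.077, adjusted p = 0.164). The enzymes of 3 genes make the sulfated galactolipids of myelin: Ugt8a adds the galactose, Fa2h hydroxylates the fatty acid and Gal3st1 adds the sulfate. Their differences were -0.19 (adjusted p = 0.321), -0.20 (adjusted p = 0.290) and -0.17 (adjusted p = 0.350). For Fa2h the differences within the sets were -0.21 and -0.19, although the sets themselves differed by more than the groups did. Gpr17, a receptor of the short-lived stage between precursor and myelinating cell, differed by -0.08, Bcas1, a marker of newly myelinating cells, by -0.09, and Nkx6-2, a homeodomain factor of maturing oligodendrocytes, by -0.06.

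The differences of 2 early genes differed between array sets at an unadjusted p under 0.05. Ugt8a stood at -0.0044 in set A and -0.38 in set B (interaction, limma adjusted p = 0.691), and Gpr17 at 0.12 in set A and -0.27 in set B (interaction, limma adjusted p = 0.771). After adjustment 0 of 37 genes showed an interaction of group and array set, against 0.00597% of all features. In set B, all ISCL4 mice lay below all littermates for 7 of 37 genes, Gpr17, Tspan2, Cnp, Ugt8a, Mog, Mal and Cldn11, against 2.39% of all features. In set A this held for 3 of 37, Opalin, Aspa and Gpr37, against 3.77%, and no gene did so in both sets, against 0.239%.

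**Figure D2:**
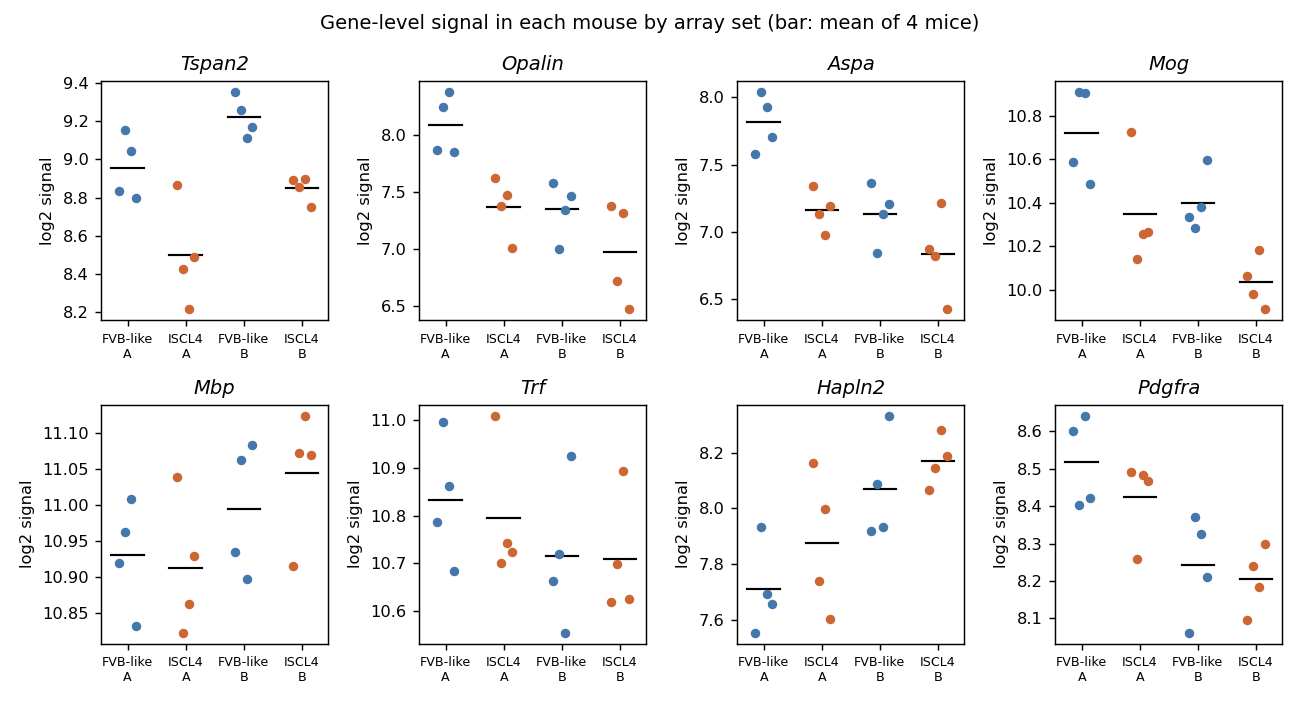
Gene-level log2 signal of 8 oligodendrocyte genes in each mouse, by group and array set, with a bar at the mean of 4 mice; each panel has its own axis. Tspan2, Opalin, Aspa and Mog have lower ISCL4 means in both sets, while Mbp differs by -0.02 and 0.05 within the sets and Trf by -0.04 and -0.01.

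In mature myelin structure, 4 genes had differences between -0.35 and -0.55 and none passed the test over all features. Opalin, a transmembrane protein of the oligodendrocyte surface and of paranodal loops, had the most negative difference of the 37. Its signal ran from 7.00 to 8.38 with a median of 7.71 in littermates and from 6.47 to 7.62 with a median of 7.34 in ISCL4 mice. In set A all ISCL4 mice lay below all littermates, and in set B the groups overlapped. The difference was -0.55 (SE 0.147, adjusted p = 0.126), with -0.72 in set A and -0.38 in set B. Without FVB-like mice 2 and 3 it was -0.42.

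Mal, a proteolipid that sorts myelin membrane, ran from 10.31 to 10.89 in littermates and from 9.98 to 10.67 in ISCL4 mice, with medians of 10.66 and 10.23. The highest ISCL4 value was that of mouse 1. The difference was -0.40 (95% interval -0.61 to -0.18, adjusted p = 0.109). Mog, an immunoglobulin-like protein of the outermost myelin layer, ran from 10.28 to 10.91 in littermates and from 9.91 to 10.72 in ISCL4 mice, where mouse 1 again was highest and the next was at 10.26. The difference was -0.37 (SE 0.087, adjusted p = 0.0967), with -0.38 in set A and -0.36 in set B. Cldn11, the claudin of the tight junctions between myelin turns, differed by -0.35 (SE 0.092, adjusted p = 0.121). Without ISCL4 mouse 1, Mog (adjusted p = 0.0236) and Mal (adjusted p = 0.0277) passed together with Tspan2 (adjusted p = 0.00978). Mouse 1 was the highest ISCL4 mouse of its set for all of them, so leaving it out enlarges these differences by construction. Each of the 16 mice was left out in turn, and this fit was picked from those.

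Other structural genes had smaller values. Pllp, or plasmolipin, differed by -0.30 (adjusted p = 0.172), with -0.44 in set A and -0.16 in set B. Gjc3, an oligodendrocyte gap junction protein, differed by -0.29 (adjusted p = 0.202), and Mag, the adhesion protein of the layer next to the axon, by -0.17 (adjusted p = 0.307). Ermn, a cytoskeletal protein of oligodendrocytes, and Gjb1, another connexin of the cell, had differences of -0.12 and -0.09. Gjb1 changed sign in set B, at 0.03.

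The myelin basic protein gene Mbp, whose product compacts the myelin membrane, did not share this direction at gene level. Its signal ran from 10.83 to 11.08 in littermates and from 10.82 to 11.12 in ISCL4 mice, and the groups overlapped throughout. The difference was 0.02 (95% interval -0.08 to 0.11, adjusted p = 0.907), an interval that excludes the differences measured for Mog, Mal and Cldn11. The interval is that of the gene-level feature only. At exon level 6 of the 12 Mbp probe sets were lower and 6 higher. By the median signal of its exon probe sets on each array Mbp was lower in ISCL4 mice, so its direction depended on the summary. The median of the differences of its 12 probe sets was -0.000225. Mobp, a small basic protein of compact myelin, differed by -0.05 (95% interval -0.27 to 0.17). Hapln2, a link protein of the matrix at the nodes of Ranvier, had the most positive difference of the 37, with values from 7.56 to 8.33 in littermates and from 7.60 to 8.28 in ISCL4 mice and a difference of 0.13 (95% interval -0.04 to 0.31, adjusted p = 0.489).

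Of the genes of mature metabolism and support, Aspa had the most negative difference. Aspa encodes aspartoacylase, which splits N-acetylaspartate and provides acetate for lipid synthesis. In littermates its signal ran from 6.84 to 8.04 with a median of 7.47, and in ISCL4 mice from 6.43 to 7.34 with a median of 7.06. All ISCL4 mice of set A lay below all littermates of that set, and in set B the groups overlapped. The difference was -0.48 (SE 0.114, adjusted p = 0.0999), with -0.65 in set A and -0.30 in set B. It passed when ISCL4 mouse 7 was left out (-0.55, adjusted p = 0.0388). That mouse was the highest ISCL4 mouse of set B for Aspa, so leaving it out enlarges the difference by construction. Gpr37, a receptor of maturing oligodendrocytes, differed by -0.16 (adjusted p = 0.225).

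Trf, or transferrin, the iron carrier made in large amounts by oligodendrocytes, had a median of 10.75 in littermates and of 10.71 in ISCL4 mice, with a lowest value of 10.55 in littermates and 10.62 in ISCL4 mice. The groups overlapped and the difference was -0.02 (95% interval -0.16 to 0.12, adjusted p = 0.914). The carbonic anhydrase gene Car2 differed by -0.14, the lipocalin gene Apod by -0.15, the actin-severing protein gene Gsn by -0.13 and the phosphatase inhibitor gene Ppp1r14a by -0.12. Qdpr, the dihydropteridine reductase, and Plekhb1, a pleckstrin homology protein, each had a difference of -0.08, as had the aggrecanase gene Adamts4. Galnt6, a glycosyltransferase that starts O-linked glycans and lies on chromosome 15, stood at -0.02. Cryab, a small heat shock protein of oligodendrocytes and astrocytes, stood at 0.06. None of these 9 passed.

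Averaged over genes, mice of the same group stood well apart. For each mouse the mean of the 24 mature genes was taken relative to the littermate mean of its array set. The littermates stood at -0.09, 0.17, 0.11 and -0.19 in set A and at -0.02, -0.04, -0.08 and 0.14 in set B. The ISCL4 mice stood at 0.04, -0.29, -0.23 and -0.30 in set A and at -0.18, -0.15, 0.01 and -0.23 in set B. Below the littermate mean were 6 of 8 ISCL4 mice, all but mice 1 and 7, and all littermates but mice 2, 3 and 8. Among all 16 mice FVB-like mouse 2 was highest for 15 of the 37 genes after array set was removed, and mouse 2 or 3 for 17. The shares over all features were not computed for these counts. The precursor markers spread over both sides of 0 in both groups, from -0.16 to 0.15 in littermates and from -0.15 to 0.14 in ISCL4 mice. The mean of the 3 lineage regulators lay below 0 in 8 of 8 ISCL4 mice, from -0.12 to -0.02, while littermates ran from -0.11 to 0.18. It also lay below 0 in all littermates but mice 2, 3 and 8.

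**Figure D3:**
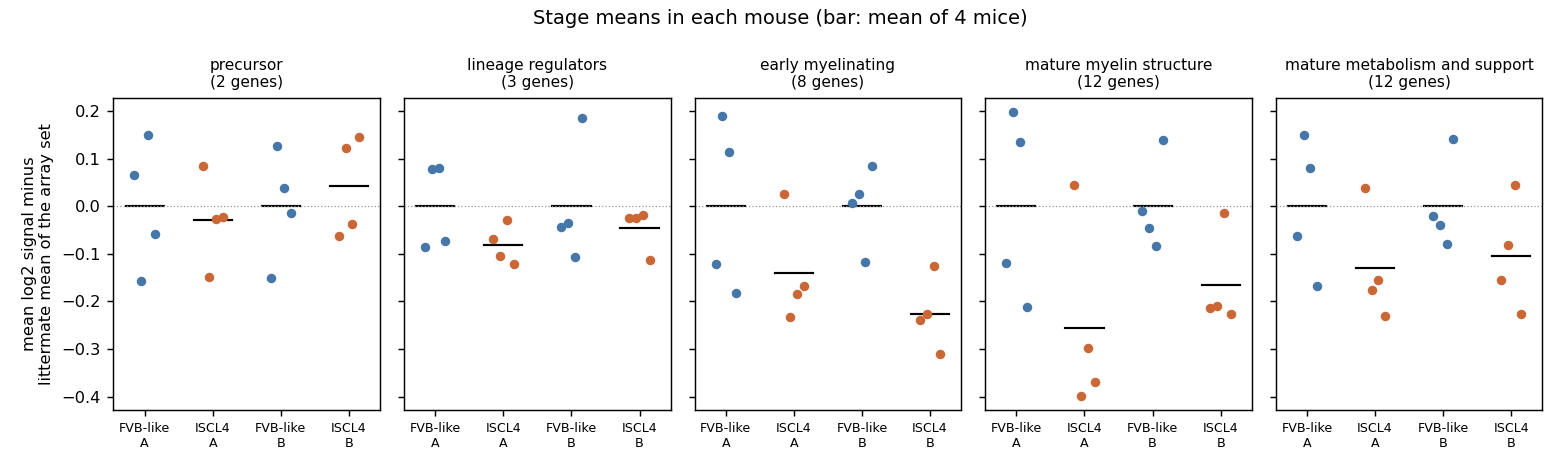
Mean log2 signal of each stage in each mouse, minus the littermate mean of the same array set, with a bar at the mean of 4 mice and a dotted line at 0. In the early myelinating, myelin structure and metabolism panels most ISCL4 mice lie below 0, with ISCL4 mouse 1 at 0.05 for myelin structure. Most littermates also lie below 0 in the myelin structure and metabolism panels. The precursor panel shows both groups on both sides of 0. All ISCL4 mice lie below 0 in the lineage regulators panel, where littermates lie on both sides.

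Markers of neighbouring tissue also leaned towards lower values in ISCL4 mice, and their part in the result was not tested. Striatal markers, of which 8 of 12 were measured, were lower in sign in ISCL4 mice for 8 of 8 with a median of -0.20, and 0 had an unadjusted p under 0.05. Their mean level ran from 8.03 to 9.29 in littermates and from 7.92 to 8.66 in ISCL4 mice, and FVB-like mouse 2 stood 0.71 above the littermate mean of its set, with the next of that group at -0.18. Without FVB-like mice 2 and 3 the striatal median was -0.10, and by set it was -0.36 and -0.02. The dopamine receptor gene Drd1, a defining striatal marker, averaged 7.02 in littermates and 6.96 in ISCL4 mice. Choroid plexus markers were lower in sign for 9 of 9 measured of 12, with a median of -0.18 and -0.0027 without those 2 mice, and their mean level ran from 7.08 to 8.49 and from 6.89 to 8.67. Meningeal and fibroblast markers were lower in sign for 13 of 13 measured of 14, with a median of -0.11, 3 at an unadjusted p under 0.05, and mean levels from 7.48 to 8.22 and from 7.46 to 8.14. None of the markers of these 3 lists was called, and no defining marker measured was at 0, a value that RMA signals do not reach.

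Markers of the remaining cell types were mostly divided in sign. Astrocyte markers were lower for 5 of 12, with Gfap at 10.07 ± 0.29 in littermates and 10.14 ± 0.32 in ISCL4 mice (SD, n = 8). Aqp4, the other defining astrocyte marker, went the other way, at 9.07 ± 0.11 and 8.94 ± 0.19. At an unadjusted p under 0.05, 1 astrocyte marker was lower and 2 were higher. Microglial markers were lower for 6 of 13, with the receptor genes Csf1r at 8.92 and 8.93 and Cx3cr1 at 8.36 and 8.48. At an unadjusted p under 0.05, 0 of them were lower and 1 higher. Endothelial markers were lower for 6 of 10, with the claudin gene Cldn5 at 7.30 and 7.06. Of them, 2 were lower and 1 higher at an unadjusted p under 0.05. Their mean lay below the littermate mean of the set in 7 of 8 ISCL4 mice, from -0.34 to 0.17, while littermates ran from -0.10 to 0.28. It also lay below that mean in all littermates but mice 1, 4 and 5. Thalamic markers were lower for 2 of 6 and pyramidal cell markers for 4 of 11. Over the thalamic markers FVB-like mouse 2 stood 0.41 above the littermate mean of its set, against at most 0.24 in any other mouse. Of the defining thalamic markers, Prkcd was at 9.06 in that mouse and at most 8.37 in the others, and Tcf7l2 at 8.09 and at most 8.18. Dentate granule cell markers leaned lower, for 5 of 7 measured of 10, with a median of -0.10 that was also -0.10 in each array set and -0.05 without FVB-like mice 2 and 3. Of these, 2 were lower and 0 higher at an unadjusted p under 0.05. Their mean lay below the littermate mean of the set in 8 of 8 ISCL4 mice, from -0.17 to -0.01, while littermates ran from -0.12 to 0.11. It also lay below that mean in littermates 4, 5 and 7. The part of the granule cell markers in the result was not tested. In these lists 0 genes were called.

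From mouse to mouse the mature genes moved together once group and array set were removed. The median Pearson correlation over 276 pairs of the 24 mature genes was 0.65, and over 28 pairs of the 8 early genes 0.60. Between early and mature genes it was 0.61. Among the 5 precursor markers and lineage regulators it was 0.06 over 10 pairs, and 0.28 between them and the mature genes. Each value describes the same 16 mice, whose arrays share RNA preparation and normalization, and it carries no test. Against the mean of the other mature genes, Mog stood at 0.94 and Trf and Cnp at 0.93. Mbp, at 0.72, and Hapln2, at 0.76, followed that mean from mouse to mouse although their group differences were near or above 0, and Pdgfra, at 0.04, did not follow it. The residual SD over mice had a median of 0.17 for the 37 genes, highest for Opalin at 0.32, against 0.12 for all features.

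At exon level 326 probe sets read 37 of the genes, Gjc3 having none under its own symbol. Of the 326, 0 were called, against 0.0249% of all 188590 probe sets, while 251 were lower in ISCL4 mice in sign, against 48.9% of all. At an unadjusted p under 0.05, 86 were lower and 6 higher, against 5.07% and 5.16%. The probe sets of a gene share its transcripts and are not replicates. All probe sets were lower in sign in 15 of 37 genes, a count for which the share over all genes was not computed. For Tspan2 10 of 10 were lower, 9 of them at an unadjusted p under 0.05, by -0.65 to -0.05. Mog had 5 of 5 lower (-0.47 to -0.29), Cldn11 6 of 6 (-0.49 to -0.26), Opalin 6 of 6 (-0.74 to -0.33) and Aspa 8 of 8 (-1.03 to -0.23). Evi2a, read only here, had 7 of 7 lower by -0.29 to -0.01, none at an unadjusted p under 0.05. In the other direction Cryab had 7 of 7 higher, by 0.02 to 0.11, and Hapln2 6 of 8.

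**Figure D4:**
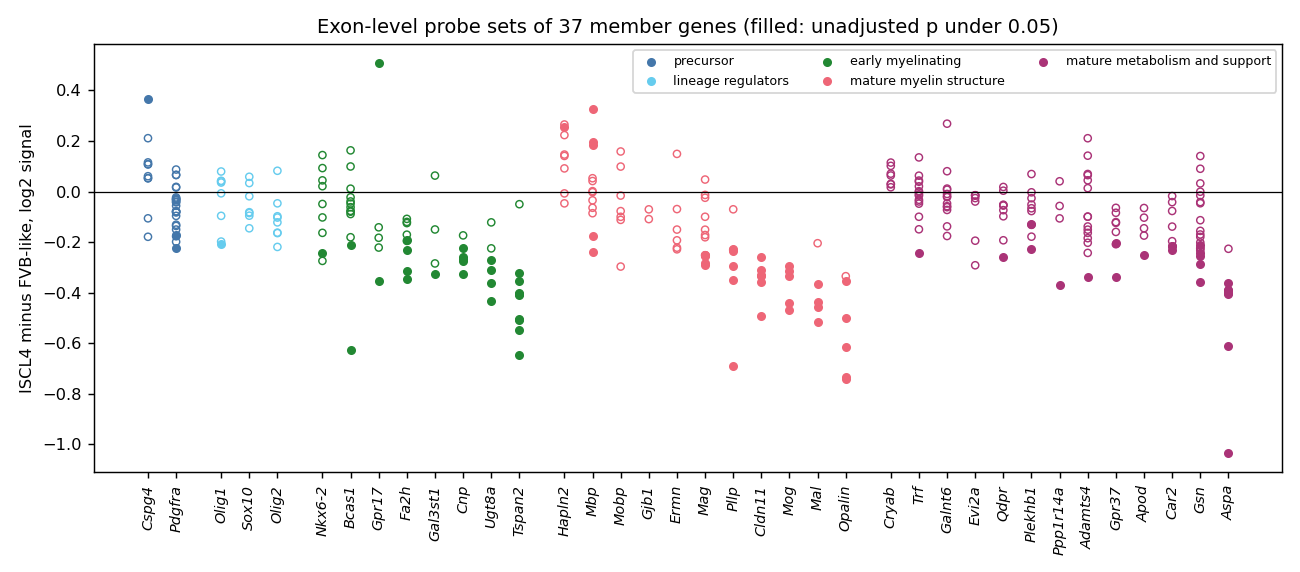
Log2 difference, ISCL4 minus FVB-like, of each of the 326 exon-level probe sets, 1 column per gene, coloured by stage; filled points have an unadjusted p under 0.05 from limma. The columns of Tspan2, Cnp, Cldn11, Mog, Mal, Opalin and Aspa lie wholly below 0, and those of Mbp, Trf and Pdgfra lie on both sides.

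The probe sets of Mbp differed in direction. The gene encodes several splice forms of myelin basic protein and, from upstream starts, the Golli proteins. Of its 12 probe sets, the 5 with a mean signal of 6.47 to 9.99 were all higher in ISCL4 mice, by 0.04 to 0.33. Of the 7 with a signal of 11.6 to 13.6, 6 were lower, and the differences ran from -0.24 to 0.0018. This division by signal was made after the values were seen, and signal reflects the probes as well as the transcript. Trf, the other bright gene near 0, had 9 of 15 lower, with differences from -0.24 to 0.14.

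**Figure D5:**
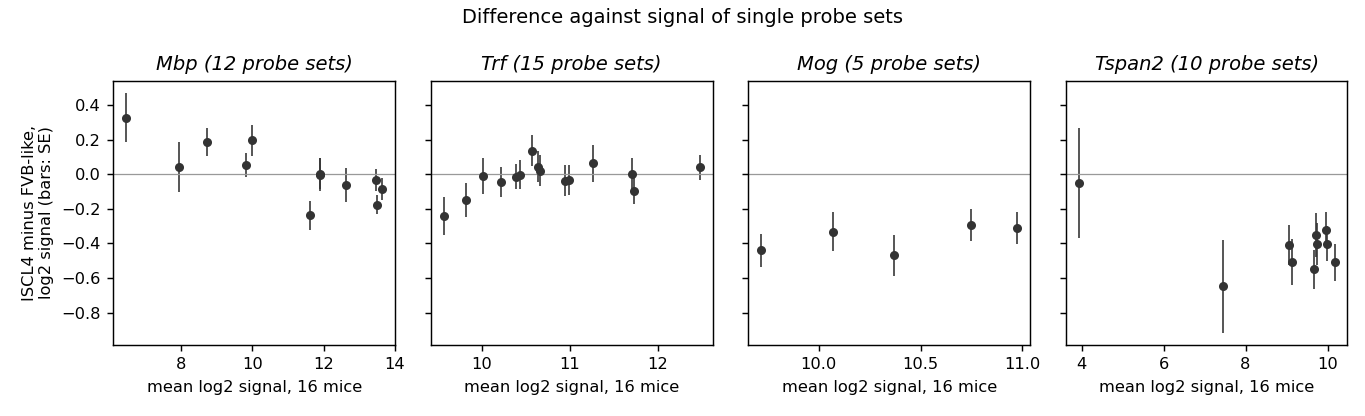
Log2 difference, ISCL4 minus FVB-like, of single probe sets of Mbp, Trf, Mog and Tspan2 against their mean log2 signal over 16 mice, with bars of 1 SE. The Mbp points pass from above 0 at low signal to at or below 0 at high signal, while all 5 Mog and all 10 Tspan2 points lie below 0.

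Whether a probe set departed from the rest of its gene was tested directly, on its signal minus the mean of the gene's other probe sets. Of 324 probe sets of genes with at least 3, 0 departed, against 0.0175% of all 176782 tested, and 34 had an unadjusted p under 0.05, against 8.34%. The smallest p belonged to 1 probe set of Cspg4, with a departure of 0.32 (limma adjusted p = 0.460), followed by 1 of Gpr17 at -0.34 and 1 of Mobp at -0.29 (limma adjusted p = 0.487 for each). Next were 1 of Mbp at -0.28 (limma adjusted p = 0.490) and another of Gpr17, of opposite sign, at 0.73 (limma adjusted p = 0.491).

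Lists of further genes of the lineage and its pathways gave smaller medians, and 0 of their genes were called. Of 18 other genes of committed and newly formed oligodendrocytes 12 were lower in sign, with a median of -0.03. At an unadjusted p under 0.05, 6 were lower and 1 higher, against 6.89% and 7.51% of all features. The members with the smallest p were the ubiquitin ligase gene Rnf122 at -0.27 (adjusted p = 0.118), the choline phosphodiesterase gene Enpp6, a marker of newly formed oligodendrocytes, at -0.33 (adjusted p = 0.204) and Bmp4 at -0.26 (adjusted p = 0.214). Of 33 measured among 41 other mature oligodendrocyte genes 24 were lower, with a median of -0.06, and 5 were lower and 2 higher at an unadjusted p under 0.05. In this list the alarmin gene Il33 stood at 0.31 (SE 0.074, adjusted p = 0.0999), higher in ISCL4 mice, Rnf13 at -0.21 and Desi1 at -0.12. Of 11 measured among 13 other precursor genes 3 were lower, with a median of 0.04, led by Pcdh15 at 0.09, Matn4 at 0.11 and Sox5 at 0.07. In this precursor list 0 were lower and 1 higher at an unadjusted p under 0.05.

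The sphingolipid and galactolipid metabolism list mixes genes of synthesis and of breakdown. Of its 17 measured genes 16 were lower in sign, against 47.9% of all features. At an unadjusted p under 0.05, 5 were lower, against 6.89%. The median of the list was -0.06. Cers2, the ceramide synthase for very long acyl chains, stood at -0.18 (adjusted p = 0.190), the desaturase gene Degs1, which completes ceramide, at -0.13 and the activator protein gene Gm2a at -0.10. Cholesterol synthesis was divided, with 8 of 15 measured genes lower and a median of -0.03. The enzyme genes with the smallest p were Hmgcs1 at -0.17 (adjusted p = 0.121), Sqle at -0.15 and Sc5d at -0.09. Of 11 inhibitors of oligodendrocyte differentiation 6 were lower, among them the BMP receptor gene Bmpr1a at -0.16 and the helix-loop-helix inhibitor gene Id2 at -0.17, with Zfp423 at 0.09. Genes of the node and paranode were lower for 6 of 12. The adhesion genes Cntn1 and Cntn2 stood at -0.12 and 0.11, and the potassium channel gene Kcnq3 at -0.09.

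Of the 37 genes, 4 lie on chromosomes 15 or 18: Sox10 and Galnt6 on 15 and Mbp and Gpr17 on 18. Their differences were -0.05, -0.02, 0.02 and -0.08, and none was called. Tspan2, on chromosome 3, and Opalin, Aspa, Mog, Mal and Cldn11 lie on other chromosomes.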

How the data were processed

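Hippocampal RNA of 16 mice was hybridised to exon arrays. The authors deposited log2 values; the submitters' processing notes name RMA, the software Partek 6.6 and the mm9 build without saying what each was used for. Since RMA equalises the distributions of arrays, differences that affect all genes of an array alike are removed. No detection call was used, and the mean signal of all 37 gene-level features was not in the lowest 25% of features. Probe sets were named from the platform annotation where it gave 1 symbol or an older alias: at gene level 14996 of 16755 features had 1 symbol, 1019 several and 740 none, and at exon level 179269, 1325 and 7996. At exon level, 5 probe sets labelled Gje1, an older alias of Gjc3 that is also the symbol of another gene, were left out.

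Groups and replicate numbers came from the sample titles, and array sets from the array file names in the labels. All features of a level were fitted in limma 3.58.1 (lmFit and eBayes, R 4.3.3) on array set and group, and a feature was called when its p, adjusted over the whole level by Benjamini-Hochberg, was under 0.05. All p-values and 95% intervals of single genes are limma's. Departures used genes with at least 3 probe sets. Precision is limited by the number of arrays. The fits were also run on simulated data in which features varied independently, whereas these genes vary together. The outcome is not given here. The alternatives were array set and filter settings, normalizations, variance settings, array weights, the replicate block, exon-level summaries and leaving out mice; leaving out FVB-like mice 2 and 3 together was added after the data were seen.

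The genes, their stages and the other lists were chosen with earlier results of these data known. All genes of the module could be named, and from each other list of lineage and pathway genes those called and the 3 with the smallest p. Cell type lists are given by counts and defining markers. Replicates are separate mice, per the labels' protocols. Promoters came from RefSeq on GRCm38.p6.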

Additional observations from a re-analysis of the deposited data

Results flagged for a closer look

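Values of single mice that lay far from the rest of their group are given here, from 74 groups of 8 mice and 32 groups of 4, of which 2 and 3 were picked out. Chance picks out about 1 in 20 such groups. For Mog, ISCL4 mouse 1 had a log2 signal of 10.72, high among the 8 ISCL4 mice, the nearest of which was at 10.26. For Nkx6-2, ISCL4 mouse 4 was low at 7.795, with the nearest at 8.00. Over the genes of mature myelin structure, ISCL4 mouse 7 had a mean of -0.0139 relative to the littermates of its array set, high among the 4 ISCL4 mice of that set, the nearest of which was at -0.21. Over the lineage regulators Olig1, Olig2 and Sox10, ISCL4 mouse 8 was low at -0.114, with the nearest at -0.02. Over the striatal markers, FVB-like mouse 2 was high at 0.711, with the nearest littermate of its set at -0.18.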

How the results depend on the processing

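Over 27 settings, 957 of 998 values of single genes kept their direction and their side of the threshold, 18 lost a call, 4 gained one and 19, in 7 genes, changed sign. The count of called genes, 1 in the report, was 0 in array set A alone, 0 in set B alone, 0 without FVB-like mice 2 and 3, 0 for the median of exon probe sets, 0 without the array set term, 0 with quantile normalization (Tspan2 adjusted p = 0.0527) and 0 with the replicate block (Tspan2 adjusted p = 0.102), and 2 with trended and robust variances (Tspan2 and Mog), a setting that called 5 exon probe sets where the report has 0. The single sets and the reduced groups hold fewer mice; the other causes were not tested. Leaving out 1 mouse at a time gave 0 to 3 called genes, 31 to 34 genes lower in sign and medians of -0.15 to -0.09. Called features over all genes numbered 49, with 11 without FVB-like mice 2 and 3 and 18 with the replicate block. Same-numbered mice of the groups correlated at -0.05 to 0.25, over 0.1 in 6 of 8 pairs, and 6 of 8 pairs correlated best with their own number, a hint of pairing from the data. The labels give no pairing and 2 pairs were not over 0.1, so the block stayed an alternative.

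Changes of sign were seen where values were near 0. In array set A alone Gpr17 stood at 0.12 and Mbp at -0.0173. In set B alone Galnt6 stood at 0.0195, Gjb1 at 0.0349 and Sox10 at 0.0063. Without FVB-like mice 2 and 3 Galnt6 stood at 0.0454, Mobp at 0.0173 and Trf at 0.0198. For the median of exon probe sets Mbp stood at -0.13, Mobp at 0.0861 and Trf at 0.0584, and with quantile normalization Trf stood at 0.01003. Leaving out 1 mouse moved Galnt6 from -0.0645 to 0.0202, Mbp from -0.00077 to 0.0343 and Trf from -0.0544 to 0.0087. The cause was not tested. Background correction could not be varied, since the deposited values were already processed.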
